A study of Caenorhabditis elegans with 2 samples.

Results

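The CUT homeobox genes of the ONECUT type encode DNA-binding proteins that carry a CUT domain next to a homeodomain. In C. elegans several CUT homeobox genes are known to act together in neurons of every kind. There they promote panneuronal genes such as those for synaptic vesicle release and neuropeptide processing. Losing several of them together has a larger effect than losing any alone. This background is not claimed for each gene described below. CEH-14, the protein mapped here, belongs to another homeobox class, the LIM homeobox proteins, which are known for specifying particular neuron types. The account below describes where tagged CEH-14 was recovered around 6 CUT homeobox genes, out of 19985 protein-coding genes of the annotation: ceh-38, ceh-39, ceh-48, ceh-21, ceh-41 and ceh-49. The genes were listed by name, and the group was chosen on its family and with earlier results of these same lists known. The values used are the summit positions and the rank of each entry by signal value, so all of them are given as a description.

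The chromatin came from whole hermaphrodite late embryos of strain OP315, collected 5 hours after synchronization by egg bleaching. All worms carried CEH-14 fused at its C-terminus to GFP and FLAG in a stable transgenic line, and the fusion was precipitated with an antibody against GFP after sonication. The samples form 1 group of 2 biological replicates, and no control library was analysed here, so no groups were compared. Whole embryos mix all cell types, so that a site bound in a few neurons and a site weakly bound in many cells cannot be told apart.

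Each list gives entries with a summit and the authors' signal value, which ranks entries within that list only. The list thresholded by the irreproducible discovery rate (IDR, a score of how alike ranked lists place a peak) held 1681 peaks. These were the strongest 1681 of the 21766 entries in the pooled list. The IDR list is labelled optimal, and how its threshold was set is not given. A place in it does not mean that both replicates ranked the peak alike. Of its peaks, 52 had a summit within 100 bases in replicate 1 alone and 71 in replicate 2 alone. The replicate lists had 21217 entries (replicate 1) and 19577 (replicate 2). The pooled list and the replicate lists hold background as well as peaks. The signal value fell to 72.97 at the last IDR peak and was 72.96 at the next pooled entry, rank 1682. Most entries of a list have the same width (456 bases in 99.1% of pooled entries and in 88.3% of IDR peaks), so position was taken from the summit. Read numbers are not given, so depth is unknown.

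Of the 6 CUT homeobox genes, ceh-38 and ceh-39 had an IDR summit within 1000 bases of an annotated start, and ceh-48 and ceh-21 had one further upstream. In all, 2 of 6 had an IDR summit near a start, beside 6.82% of all protein-coding genes. From 5000 bases upstream through the gene body 4 of 6 had one, beside 13.7% of all genes. The choice of genes used these values, so no test is given and nothing is read from the shares. The 4 genes rest on 4 distinct IDR summits: ceh-39 has 2, and 1 of those is also the only IDR summit in the window of ceh-21. In the relaxed lists the wider window held an entry at most genes, and the window near a start at fewer. Pooled entries lay near a start of 3 of the 6 (42.1% of all genes) and in the wider window of all 6 (70.3%). For replicate 1 the counts were 3 (41.6%) and 5 (70.9%), and for replicate 2 they were 4 (39.8%) and 6 (69.5%).

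**Figure D1:**
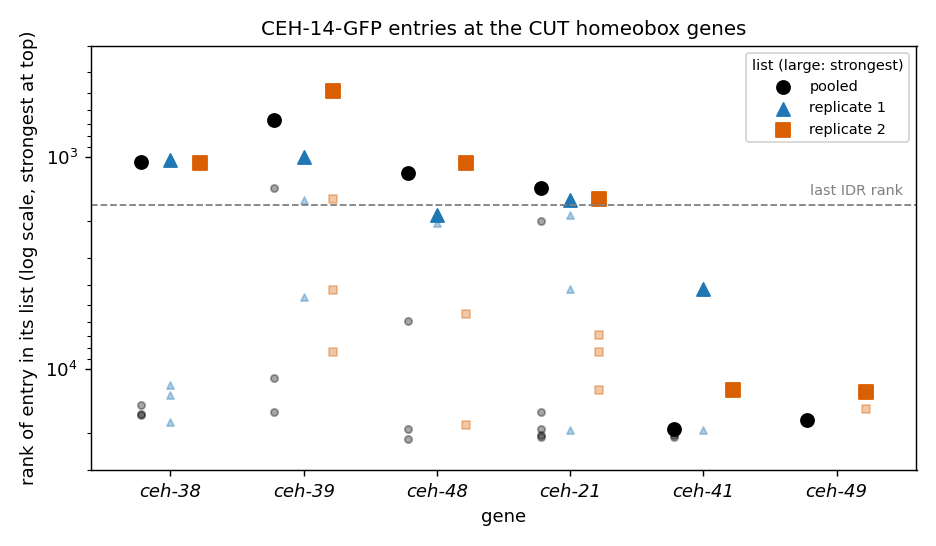
Rank of each entry (log scale, strongest at the top) from 5000 bases upstream through the gene body of the 6 CUT homeobox genes, in the pooled list (circles), replicate 1 (triangles) and replicate 2 (squares), with the strongest entry of each gene and list drawn large. The strongest pooled entries of ceh-39, ceh-38, ceh-48 and ceh-21 rank 670, 1059, 1185 and 1403, above the dashed line at the last IDR rank of 1681, whereas those of ceh-49 and ceh-41 rank 17335 and 19198.

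The strongest pooled entries of the genes fell into separate ranges. In order they ranked 670 for ceh-39, 1059 for ceh-38, 1185 for ceh-48, 1403 for ceh-21, 17335 for ceh-49 and 19198 for ceh-41. An entry as strong or stronger was met in the same window at 6.22% of all protein-coding genes for ceh-39, 9.23% for ceh-38, 10.2% for ceh-48 and 11.6% for ceh-21, but at 63.7% for ceh-49 and 66.5% for ceh-41. Replicate 1 ranked ceh-39 at 1006, ceh-38 at 1039, ceh-21 at 1605 and ceh-48 at 1882. Replicate 2 ranked ceh-39 at 488, ceh-38 at 1064, ceh-48 at 1074 and ceh-21 at 1588. ceh-39 and ceh-38 led in both replicates, with ceh-38 close behind ceh-39 in replicate 1 and just ahead of ceh-48 in replicate 2. In contrast, ceh-48 and ceh-21 changed places and do not differ beyond the spread of the replicates. The pooled ceh-39 rank of 670 is that of an entry 2681 bases upstream, inside a tRNA gene. Within 1000 bases of a start, ceh-38 stood ahead of ceh-39 in the pooled list (1059 and 1403). The same held in replicate 1 (1039 and 1605) and replicate 2 (1064 and 1588).

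ceh-38, a CUT gene that is known to be expressed in all neurons and widely outside them, lies on chromosome II at 6951526 to 6955409 on the plus strand (WBGene00000459). It has 11 distinct annotated starts spread over 544 bases, which puts more of its sequence near a start than in the other 5 genes, each with 1 annotated start. Of all protein-coding genes, 27.4% have more than 1. Only 225 bases separate its first start from the start of malt-1, which encodes a paracaspase-like protease and is read in the opposite direction. This stretch between the divergent genes, shown because the peak covers most of it although the summit lies just past its end, reads as follows on the plus strand of ce11, chrII:6951301-6951525, from malt-1 to ceh-38.

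ceh-38 upstream: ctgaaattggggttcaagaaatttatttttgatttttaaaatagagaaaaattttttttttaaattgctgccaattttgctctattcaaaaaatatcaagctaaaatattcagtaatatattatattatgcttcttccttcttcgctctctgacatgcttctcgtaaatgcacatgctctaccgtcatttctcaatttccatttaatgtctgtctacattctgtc

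The IDR peak at ceh-38 ran from 6951313 to 6951768, with its summit at 6951541 in an untranslated exon, 15 bases past the first annotated start. The signal value was 92.4 in the pooled list (rank 1059), 44.3 in replicate 1 (rank 1039) and 51.5 in replicate 2 (rank 1064). Both replicates therefore placed the peak at almost the same rank. Their summits, at 6951528 and 6951585, were 57 bases apart. The start of malt-1 was 241 bases from the pooled summit, so the peak lies within 1000 bases of both genes and cannot be given to ceh-38 alone.

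The rest of the ceh-38 window held weak entries. The pooled list had an entry in an intron 641 bases from the nearest start (signal value 27.2, rank 14829), one in a coding exon of malt-1 (25.9, rank 16302) and one in the last, untranslated part of ceh-38 (25.8, rank 16484). Replicate 1 had a summit within 100 bases of each of these, and replicate 2 had none. Just outside the window, at 5799 bases upstream, the next pooled entry ranked 14976, and at 7661 bases upstream an entry ranked 688.

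ceh-48, which is known for expression throughout the nervous system, lies on chromosome IV at 6812108 to 6815607 on the plus strand (WBGene00015934). No pooled or IDR summit lay within 1000 bases of its start. Its IDR peak, at 6809717 to 6810172, had its summit 2163 bases upstream, in the 2477 bases between ceh-48 and the gene C17H12.10. The ncRNA gene C17H12.31, read on the minus strand, lay 70 bases from the summit at its nearest edge, its annotated start. The sequence around this peak is shown because a second pooled summit lies in the same stretch. It is from the plus strand of ce11, chrIV:6809895-6810194, and capitals mark each pooled summit with 5 bases on either side.

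ceh-48 upstream: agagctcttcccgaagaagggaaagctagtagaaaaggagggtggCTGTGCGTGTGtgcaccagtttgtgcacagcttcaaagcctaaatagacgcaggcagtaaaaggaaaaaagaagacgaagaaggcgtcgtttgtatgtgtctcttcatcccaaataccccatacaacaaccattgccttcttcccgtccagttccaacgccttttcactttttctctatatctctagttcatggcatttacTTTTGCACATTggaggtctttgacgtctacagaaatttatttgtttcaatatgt

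The replicates split this region differently. At the first summit the signal value was 87.3 in the pooled list (rank 1185), 32.7 in replicate 1 (rank 2051) and 51.3 in replicate 2 (rank 1074). Replicate 1 had a second entry of similar height at 6810146, 1962 bases upstream of ceh-48, with a signal value of 33.9 and rank 1882, and replicate 2 had no summit within 100 bases of it. In the pooled list that second entry had a signal value of 40.2 and ranked 5962. Neither entry of replicate 1 was among its strongest 1681, so with replicate 1 alone ceh-48 has no entry of that strength and 3 of the 6 genes do.

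Closer to the gene, replicate 2 had an entry 222 bases upstream of the start of ceh-48, with a signal value of 14.7 and rank 18452. Neither replicate 1 nor the pooled list had one there. The remaining entries were a pooled one in a coding exon of ceh-48 (rank 19223), with no summit of either replicate within 100 bases, and one in an intron of C17H12.10, which ranked 21485 in the pooled list and 5531 in replicate 2.

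**Figure D2:**
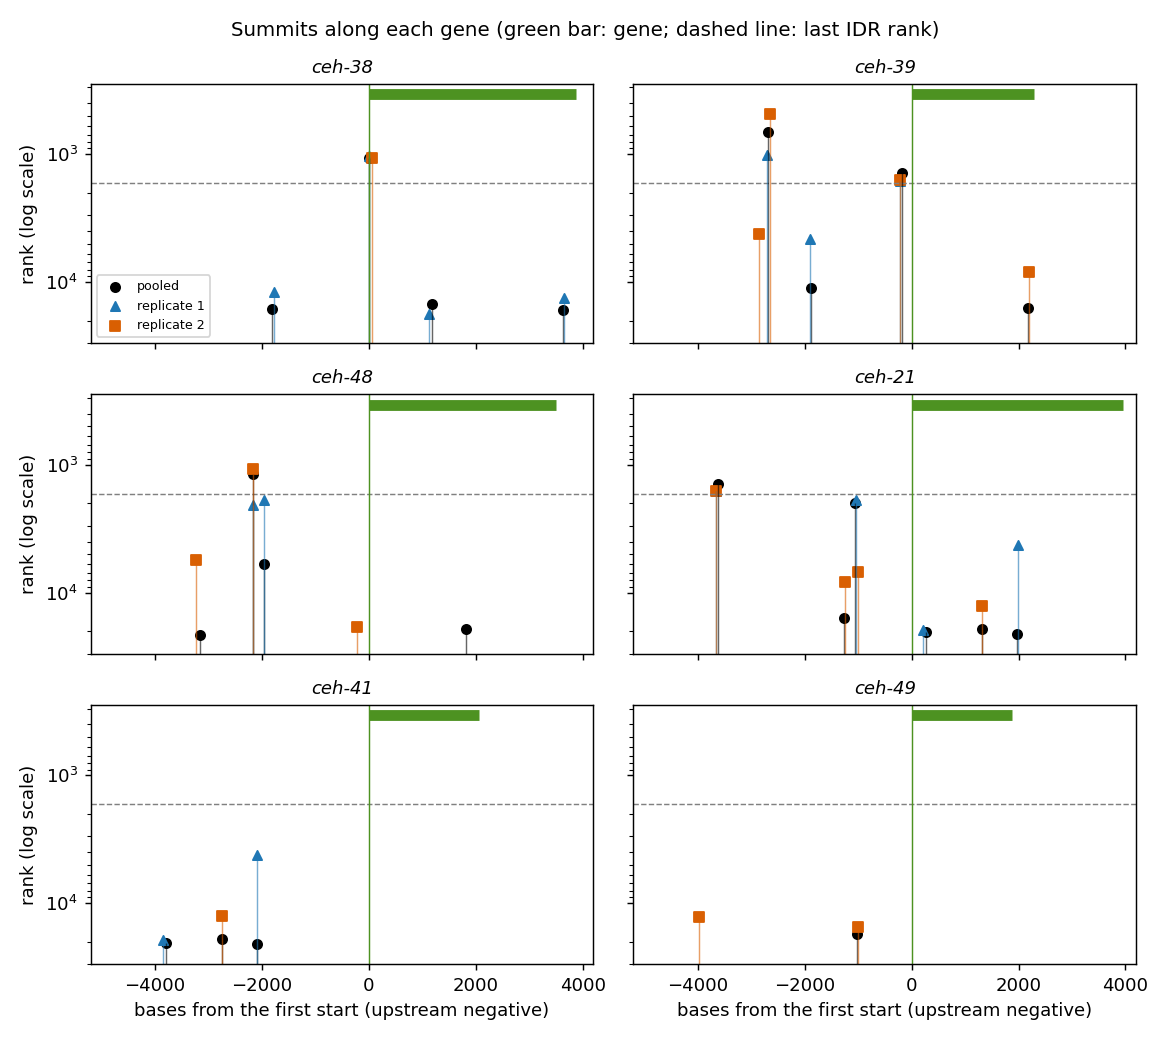
Summits of pooled, replicate 1 and replicate 2 entries along the 6 genes, by distance from the first annotated start (bases, upstream negative) and rank (log scale, strongest at the top), with the gene as a green bar and the last IDR rank of 1681 as a dashed line. The strong entries sit at the start of ceh-38, at 178 and 2681 bases upstream of ceh-39, 2163 bases upstream of ceh-48 and 3614 bases upstream of ceh-21, and no entry of ceh-41 or ceh-49 reaches the line.

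The other strong entries belong to a cluster on chromosome X, where ceh-41, ceh-21 and ceh-39 follow each other on the minus strand within 9565 bases (1846608 to 1856172). Only 103 bases separate ceh-41 from ceh-21, and 1137 bases separate ceh-21 from ceh-39, with the small gene T26C11.9 between them. Windows of 5000 bases overlap here, so the same summit can count for several genes: the 22 pooled entries counted over the 6 genes are 17 distinct summits, of which 5 count for 2 genes.

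ceh-39, known as an X-signal element that helps the embryo count its X chromosomes by repressing the sex-determination gene xol-1, stands at the upstream end of the cluster (X, 1853874 to 1856172, WBGene00000460). Its proximal IDR peak ran from 1856122 to 1856577, with the summit in intergenic sequence 178 bases upstream of its start and 123 bases from the small ncRNA gene T26C11.10. The 300 bases between the 2 genes are shown because the summit falls within them, although the peak runs past both ends. They are written on the minus strand of ce11, chrX:1856173-1856472, ending at the base before the ceh-39 start, with capitals for the pooled summit and 5 bases on either side.

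ceh-39 upstream: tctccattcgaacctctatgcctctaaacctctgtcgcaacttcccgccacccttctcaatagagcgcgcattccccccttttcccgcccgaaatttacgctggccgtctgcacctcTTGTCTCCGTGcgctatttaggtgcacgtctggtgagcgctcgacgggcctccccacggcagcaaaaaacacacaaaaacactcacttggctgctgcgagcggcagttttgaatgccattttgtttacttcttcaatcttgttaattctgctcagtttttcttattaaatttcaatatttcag

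The signal value of the proximal ceh-39 peak was 80.2 in the pooled list (rank 1403), 36.6 in replicate 1 (rank 1605) and 42.9 in replicate 2 (rank 1588). The replicates placed it near the same rank, and their summits were 2 bases apart, 212 and 214 bases upstream of the start. The printed stretch ends in tttcag, the letters with which worm splice acceptors commonly end. In worms an annotated start can be a trans-splice site rather than the site of initiation, and distances here are to annotated starts.

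The strongest entry in the windows of the 6 genes lay 2681 bases upstream of ceh-39, at 1858625 to 1859080, with its summit inside a tRNA gene (WBGene00023152, X, 1858819 to 1858890, plus strand). The signal value was 114.5 in the pooled list (rank 670), 44.9 in replicate 1 (rank 1006) and 71.6 in replicate 2 (rank 488). All 3 summits fell within the tRNA gene, and those of the replicates were 49 bases apart. The tRNA gene is printed in capitals with 40 bases on either side, on the plus strand of ce11, chrX:1858779-1858930.

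tRNA gene upstream of ceh-39: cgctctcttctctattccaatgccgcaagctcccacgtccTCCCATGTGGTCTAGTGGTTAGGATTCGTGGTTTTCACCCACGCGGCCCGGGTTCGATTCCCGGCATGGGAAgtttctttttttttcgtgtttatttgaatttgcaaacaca

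Summits inside tRNA genes were 95 of the 1671 nuclear IDR summits (5.69%), and 481 (28.8%) lay within 200 bases of a non-coding gene, piRNA genes left out. Of the 4 distinct IDR summits at the CUT homeobox genes, 1 was inside a tRNA gene and 3 lay within 200 bases of a non-coding gene. The part of the non-coding genes in these peaks was not tested. Other entries upstream of ceh-39 were weaker and differed between the replicates: one at 1887 bases ranked 11031 in the pooled list and 4574 in replicate 1 with no counterpart in replicate 2, and one at 2847 bases ranked 4236 in replicate 2 alone.

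ceh-21, the middle gene (X, 1848779 to 1852736, WBGene00000444), owes its IDR summit to the proximal peak of ceh-39, which lies 3614 bases upstream of the ceh-21 start. The strongest entry between ceh-39 and ceh-21 missed the IDR list. It ranked 2004 in the pooled list with a signal value of 67.2, and it lay 1054 bases upstream of ceh-21 and 59 bases from the start of T26C11.9, in an untranslated exon of that gene. Replicate 1 gave it a signal value of 33.9 (rank 1884) and replicate 2 a signal value of 22.4 (rank 6886), so it stood much lower in the order of replicate 2. Its summit lay 1037 bases from the ceh-21 start in replicate 1 and 1002 in replicate 2, just outside the 1000 bases that count as near a start.

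Within 1000 bases of its start, ceh-21 had weak entries in its coding exons, 271 bases into the gene in the pooled list (signal value 23.2, rank 20394) and 223 bases in replicate 1 (13.0, rank 19400), and none in replicate 2. Further into the gene, an intron entry ranked 4208 in replicate 1 but 21008 in the pooled list, with none in replicate 2. A coding-exon entry ranked 12615 in replicate 2 and 19198 in the pooled list, with none in replicate 1.

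ceh-41, the last gene of the cluster (X, 1846608 to 1848675, WBGene00000462), had no entry of its own. No list had a summit within 1000 bases of its start. All of the entries in its window (3 pooled, 2 in replicate 1 and 1 in replicate 2) lie in the exons and introns of ceh-21 just described, 2080 to 3838 bases upstream of ceh-41. The rank 2004 entry of the cluster lay 5115 bases upstream, just outside the window, and the proximal ceh-39 peak 7675 bases upstream.

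**Figure D3:**
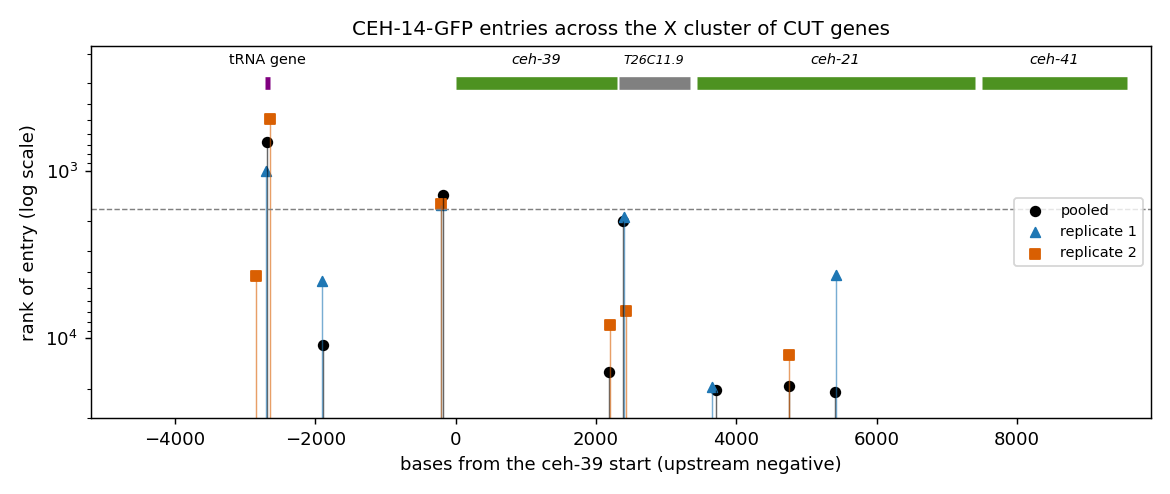
Entries across the X cluster by distance from the ceh-39 start (bases, upstream negative) and rank (log scale, strongest at the top), with ceh-39, ceh-21 and ceh-41 in green, T26C11.9 in grey, the tRNA gene in purple and the last IDR rank of 1681 as a dashed line. The entries at the tRNA gene (pooled rank 670) and 178 bases upstream of ceh-39 (pooled rank 1403) are above the line, the entry at T26C11.9 (rank 2004) is just below it, and those inside ceh-21 rank 19198 or lower in the pooled list.

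ceh-49 lies alone on chromosome V (6118333 to 6120206, minus strand, WBGene00017538), 702 bases from the end of ttn-1, the large titin gene of muscle. Its window held 1 pooled entry and none in replicate 1, the fewest of the 6 genes in those lists, and 2 in replicate 2. The pooled entry, in an intron of ttn-1 and 1024 bases upstream of ceh-49, had a signal value of 25.2 and rank 17335. Replicate 2 had the matching summit at 993 bases, just inside the 1000 bases (15.99, rank 15398), and another in a coding exon of ttn-1 at 3983 bases (17.3, rank 12869). Since depth is unknown, the empty window in replicate 1 does not show that the gene was unbound.

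The strong entries were shared by the replicates and the weak ones mostly were not. Of the 17 distinct pooled summits, the 4 in the IDR list had a summit within 100 bases in both replicates. Of all IDR peaks 92.7% did, while 52 had one in replicate 1 alone and 71 in replicate 2 alone. The IDR threshold draws on agreement between ranked lists, which can be those of the replicates, so this is a description. Of the 13 below the IDR list, 1 had a summit in both replicates, the one at T26C11.9. For the other 12, the matching summit was in replicate 1 alone for 7, in replicate 2 alone for 4, and in neither for 1. Among all 20085 pooled entries below the IDR list, 25.4% had one in both and 15.6% in neither. Of those 20085, 5824 had one in replicate 1 alone and 6029 in replicate 2 alone. The windows held 0.145 (ceh-49) to 0.670 (ceh-21) pooled entries per 1000 bases. The windows of all protein-coding genes had a median of 0.164, and 0.219 over their summed length. By place, 4 of the 17 summits were intergenic, 4 in introns, 4 in coding exons, 4 in untranslated exons and 1 in a non-coding gene. The same split over all pooled entries is not given here, so nothing is read from these places.

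The 4 IDR summits were searched for short sequence cores, and 4 are too few to read a count against the share of all windows. In the 300 bases centred on each summit, searched on both strands, the LIM homeodomain core TAATTA was in none of the 4, and neither was its variant TAATTG. Of all 1671 nuclear IDR windows of that length, 16.3% held the former and 19.6% held the latter. The core ATCGAT, which ONECUT proteins bind, was met in the ceh-38 window (13.9% of all windows). A related core, ATCAAT, was in none of the 4 (20.5%). GAGAGA was met in the ceh-48 window (49.4%). Apart from the windows, none of these cores is in the 3 upstream stretches printed above. The windows had 42.3% GC at ceh-38, 47.7% at ceh-48, 52% at the proximal ceh-39 peak and 49.7% at the tRNA gene, beside 43.2 ± 7.64% (mean and SD over all 1671 windows). A missing match says only that these letters are not in the window.

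Among homeobox genes, the CUT genes stood at both ends of the order. Of 101 homeobox genes matched in the annotation, 56 had a pooled entry within 1000 bases of a start (55.4%, beside 42.1% of all genes). There ceh-38 took place 3 and ceh-39 place 4, after unc-62 (rank 346) and ceh-58 (rank 897), and ceh-21 took place 55. In the wider window 85 had an entry (84.2%, beside 70.3% of all genes). ceh-39 was at place 5, ceh-38 at 10, ceh-48 at 13, ceh-21 at 14, ceh-49 at 80 and ceh-41 at 82. In the IDR list, 4 of the 101 homeobox genes had a summit near a start (3.96%, beside 6.82% of all genes). In the wider window 17 of them did (16.8%, beside 13.7% of all genes). Gene length and the number of starts were not adjusted for. Likeness was measured as the Euclidean distance of log10 ranks near a start over the pooled list and both replicates, among homeobox genes with an entry in all of them. By this measure ceh-38 and ceh-39 were each other's nearest of 40 genes (0.284). Next for ceh-38 came ceh-58 (0.363) and nob-1 (0.612), and for ceh-39 came zfh-2 (0.379) and nob-1 (0.418).

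**Figure D4:**
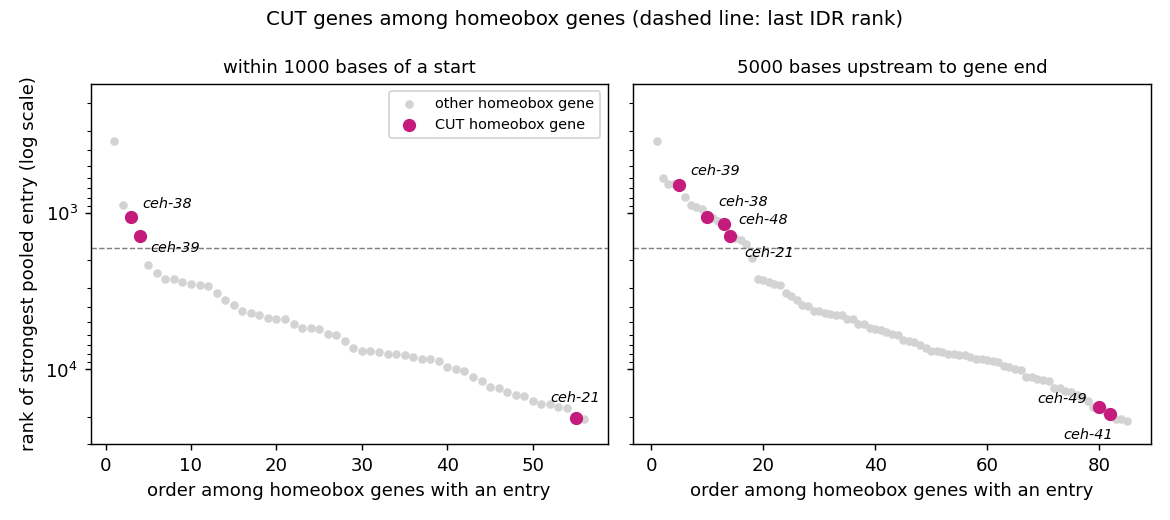
Homeobox genes ordered by the rank of their strongest pooled entry (log scale, strongest at the top), within 1000 bases of a start (left, 56 genes) and from 5000 bases upstream through the gene body (right, 85 genes), with the CUT genes in colour and the last IDR rank of 1681 as a dashed line. ceh-38 and ceh-39 are at places 3 and 4 on the left, 4 CUT genes are above the line on the right, and ceh-49 and ceh-41 are at places 80 and 82.

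The remaining CUT gene searched for, ceh-44, is of the CUX type and was placed by the RefSeq annotation of the same assembly (III, 2530620 to 2543068). No list had a summit within 1000 bases of the 1 start of ceh-44 used from that annotation, and other starts may exist. Its longer window held 3 IDR summits and 9 pooled entries, the strongest with rank 765 in the pooled list, 827 in replicate 1 and 801 in replicate 2.

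Genes listed as panneuronal, a class known to include targets of CUT proteins, had entries of their own. Whether each listed gene depends on CUT proteins was not examined. Of 25 listed, 9 had an IDR summit within 1000 bases of a start (36%, beside 6.82% of all genes) and 18 had one in the wider window (72%, beside 13.7%). Pooled entries lay near a start of 23 (92%, beside 42.1% of all genes). The highest of them was at syd-2, which encodes a scaffold protein of the presynaptic active zone (rank 297 pooled, 372 in replicate 1, 246 in replicate 2). Below it stood rgef-1 (415, 449 and 507 in the same order) and egl-21, a neuropeptide processing gene (550, 549 and 487). They were followed by rab-3, a synaptic vesicle gene (1095, 1160 and 775), jkk-1 (1131, 514 and 3133), ehs-1 (1227, 1466 and 1393), maco-1 (1288, 15365 and 403), unc-11 (1473, 1669 and none near a start in replicate 2) and cla-1 (1587, 1153 and 1270). For jkk-1, maco-1 and unc-11, an entry near a start that ranked 1681 or better was met in 1 replicate only. No pooled entry lay near a start of unc-31 or unc-64, although both had an IDR summit in the wider window. The list was drawn up with earlier results of these data known, so its counts are no independent support, and gene length and the number of starts were not adjusted for.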

How the data were processed

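Binding of CEH-14-GFP was measured by chromatin immunoprecipitation and sequencing in 2 biological replicates, numbered in the labels. The deposited ce11 narrowPeak lists were used: IDR peaks, pooled entries and entries per replicate. Records deposited with the samples state that relaxed lists derive from alignments and 1 further file of unstated kind, and IDR peaks from the relaxed lists. The aligner, the caller and the IDR cut-off were not given in the sources used here. Each entry carries the authors' deposited signal value, whose scale differs between lists, so it served to rank and describe entries inside 1 list.

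Summits were set against Ensembl release 115 gene models, and sequence came from the RefSeq copy of the same assembly. No entry passed the end of its reference chromosome. Coordinates are 1-based. A start is an annotated transcript start. Scripts ran in Python 3.11.15 with pandas 2.3.3, and window counts were tested on simulated summits. No test between groups was possible.

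The genes and lists were chosen with earlier results of these data known. Genes named are the 6 genes, their neighbours and genes whose span or start met their summits, listed panneuronal genes with an IDR summit near a start or the strongest pooled entries, and the 3 homeobox genes most like each gene with an IDR summit near its start. Of the lists' symbols, ceh-44 and ceh-85 were not matched in the Ensembl annotation. The genes unc-31, unc-64 and unc-62 were named after their values were seen. The ce10 lists were not used here.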

Additional observations from a re-analysis of the deposited data

How the results depend on the processing

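The count of 2 CUT homeobox genes with an IDR summit near a start held at 500 and 2000 bases. It also held by any base of the peak and by the single nearest start, but was 0 among the 840 strongest IDR peaks. With a replicate left out, the strongest 1681 entries of the other replicate's list stood in for the IDR peaks. The count was then also 2 for either replicate, but such counts are not IDR results. For pooled counts the other replicate's whole list was used. The count of 4 in the wider window was 2 with 2000 bases upstream, 1 among the 840 strongest, 5 with 10000 bases, and 3 to 4 with a replicate left out. The pooled count of 3 near a start was 5 at 2000 bases and 4 by any base of the entry. It was 2 among the 5000 strongest pooled entries and 3 to 4 with a replicate left out. The pooled count of 6 in the wider window ran from 4 to 6. The 9 panneuronal genes became 6 at 500 bases, 12 at 2000 bases and 11 by any base of the peak. They became 3 among the 840 strongest and 7 to 10 with a replicate left out. With either replicate left out, the strongest entry ranked 1039 to 1064 for ceh-38, 488 to 1006 for ceh-39, 1074 to 1882 for ceh-48, 1588 to 1605 for ceh-21 and 4208 to 12615 for ceh-41. For ceh-49 it ranked 12869 in replicate 2 and was not met in replicate 1. Within 1000 bases of a start it ranked 1403 for ceh-39 and 20394 for ceh-21. Ranks come from lists of different lengths, so they show no change in binding. Fewer peaks or a shorter window by construction can only lower the counts. Unknown depth limits what a missing entry shows.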
